A study of Mus musculus with 2 samples.

Results

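The genes of polyamine metabolism were compared between skeletal muscle of RXRγ mice and of control mice. The set held 9 genes, Odc1, Amd1, Smox, Sat1, Srm, Sms, Oaz1, Oaz2 and Azin1. The platform annotation names 18194 genes alone for at least 1 probe set, and 7 of the 9 are among them. A gene was taken through the probe sets that carry its symbol and no other. RXRγ mice (line 4-3) carry RXRγ, a nuclear receptor, under the human α-actin promoter, which drives the transgene in skeletal muscle. Control mice are their non-transgenic counterparts. The study's methods name C57BL6 as the mice purchased and do not state the strain of the transgenic line itself. All animals were females of 4 months of age on the same chow, fed freely. RNA was pooled within each genotype, from 5 animals by the series' design text and from 3 by the extraction protocol, and each pool was hybridized to 1 Affymetrix array. With a single array for each genotype there is no replicate error and no test, and precision is set by the number of arrays.

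Polyamines are small positively charged molecules that bind RNA and DNA and are needed for growth and translation. Ornithine decarboxylase makes putrescine, and S-adenosylmethionine decarboxylase supplies the aminopropyl groups with which spermidine synthase and spermine synthase build spermidine and spermine. Spermidine/spermine acetyltransferase and spermine oxidase run the pathway backwards. The pool is held by a feedback loop, in which polyamines raise the translation of antizyme, antizyme sends ornithine decarboxylase to the proteasome and slows polyamine uptake, and antizyme inhibitor, a relative of ornithine decarboxylase without its activity, takes antizyme away. In mouse muscle, the transcript of spermine oxidase is known to be lower in several forms of atrophy.

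Of the 9 genes, 7 had a probe set of their own, and 5 of these were measured, that is, at least 1 of their probe sets exceeded 250 on the brighter array. A probe set is the array's unit of measurement, a handful of short oligonucleotides aimed at 1 transcript, and its signal is in linear array units. A gene's value was the mean log2 ratio of RXRγ over control mice over its measured probe sets, and a gene was called higher or lower at 0.4 on that scale. By this rule 3 of the 5 measured genes were higher in RXRγ mice, namely Azin1, Odc1 and Oaz2. Smox was lower and Oaz1 stayed within 0.4. Among all 3780 genes measured in the same way, 16.8% were called higher and 20.1% lower (636 and 760 genes), or 504 and 984 genes under median scaling of the arrays. The median log2 ratio of the 5 genes was 0.52, and that of all measured genes was -0.04. The study chose its list of increased genes on these same arrays, and the set was chosen with earlier results of these data known. The counts are therefore not independent evidence of direction.

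The promoter windows of Odc1, Oaz2 and Smox are shown because these genes passed the threshold, in both directions, and have a window in the RefSeq table (build GRCm38.p6), where 7 of the 9 genes matched. Each window runs from 250 bases before to 50 bases after an annotated start of the gene. Capitals mark GC boxes (GGGCGG on either strand), the binding motif of Sp1-type factors.
Odc1, chr12:17544623-17544922, plus strand: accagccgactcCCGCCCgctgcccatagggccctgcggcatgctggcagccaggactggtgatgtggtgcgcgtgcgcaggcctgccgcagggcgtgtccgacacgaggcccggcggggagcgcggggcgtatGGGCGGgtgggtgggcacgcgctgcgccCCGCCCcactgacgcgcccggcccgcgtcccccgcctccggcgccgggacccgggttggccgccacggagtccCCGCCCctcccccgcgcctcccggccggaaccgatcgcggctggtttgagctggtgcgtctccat
Oaz2, chr9:65676298-65676597, plus strand: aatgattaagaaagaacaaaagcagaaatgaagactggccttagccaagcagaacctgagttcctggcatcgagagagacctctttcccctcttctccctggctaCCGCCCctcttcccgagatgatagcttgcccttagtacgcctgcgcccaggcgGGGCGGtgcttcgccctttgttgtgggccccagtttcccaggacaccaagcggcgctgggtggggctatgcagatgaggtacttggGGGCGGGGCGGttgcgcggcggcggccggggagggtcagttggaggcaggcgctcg
Smox, chr2:131491612-131491911, plus strand: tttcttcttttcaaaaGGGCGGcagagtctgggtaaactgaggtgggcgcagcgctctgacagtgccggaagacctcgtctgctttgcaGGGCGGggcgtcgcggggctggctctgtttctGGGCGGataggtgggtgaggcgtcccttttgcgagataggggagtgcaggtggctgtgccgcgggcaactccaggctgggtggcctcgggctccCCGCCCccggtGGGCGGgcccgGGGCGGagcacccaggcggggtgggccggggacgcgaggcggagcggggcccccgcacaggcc
The GC box occurred 4 times in the window of Odc1, 4 times in that of Oaz2, where a pair of matches overlaps by 1 base, and 6 times in that of Smox. Of all 32851 windows of the same length in the table, 35.7% held at least 1 GC box. The GC content was 78.0% in the window of Odc1, 61.7% in that of Oaz2 and 71.0% in that of Smox, with a median of 52.7% over all windows. The core motif of nuclear receptors (AGGTCA, either strand), which lies in 16.3% of all windows, was not found in these 3. Nor was the DR1 element at which RXR pairs with PPAR, searched on both strands as this core repeated after 1 base of any kind, which lies in 13 of all windows. The E box CACGTG, present in 7.15% of windows, and the TATA box TATAAA (either strand), present in 13.6%, were not found in them either. Among the other genes of the set, the window of Oaz1 held a TATA box, and 1 of the 2 windows of Sms held an E box and a core motif. GC boxes also occurred in genes of the set that were not measured, and which therefore have no call. The other window of Sms held 4, that of Sat1 held 2 and that of Amd1 held 1. The window of Oaz1, which was measured and stayed within 0.4, held none. These matches describe letters in the reference and not sites of binding.

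Odc1 encodes ornithine decarboxylase, the first enzyme of the pathway. Its brightest probe set had a signal of 1592.7 in RXRγ mice, against 777.4 in control mice. The other measured probe set gave 1426.1 in RXRγ mice and 699.2 in control mice. Both lay well above 250 in both genotypes, and both were higher in RXRγ mice by nearly the same factor, with log2 ratios of 1.03 and 1.03. Odc1 averaged 1509.4 in RXRγ mice and 738.3 in control mice, a 2.04-fold difference. The remaining probe set was too dim to enter this mean (177.3 in RXRγ mice, 96.1 in control mice). The name of the brightest probe set ends in _x_at, which marks oligonucleotides that can also match other sequences, and without it the log2 ratio was again 1.03. Of the 3780 measured genes, 175 had a larger log2 ratio than Odc1 (4.63%).

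Azin1 encodes antizyme inhibitor, which binds antizyme and thereby frees ornithine decarboxylase. Its increase was the largest among the 5 measured genes. One probe set had a signal of 1125.5 in RXRγ mice against 324.4 in control mice, and the next had 763.6 in RXRγ mice against 220.2 in control mice. Both gave a log2 ratio of 1.79, and they differed from each other by 0.00072 on the log2 scale. The median span between the measured probe sets of a gene was 0.20, over the 1213 genes with more than 1. Azin1 averaged 944.6 in RXRγ mice and 272.3 in control mice, a 3.47-fold difference. In control mice the second probe set lay under 250, so it was measured through its signal in RXRγ mice. The remaining, dim probe set gave 203.8 in RXRγ mice and 54.6 in control mice. A larger log2 ratio than that of Azin1 was found for 52 of the 3780 genes (1.38%).

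**Figure D1:**
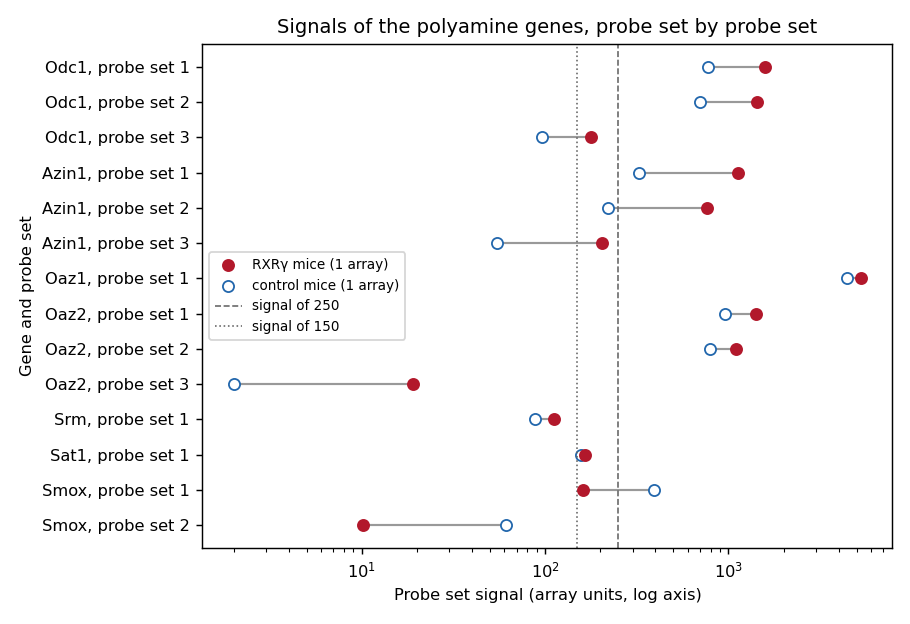
Signal of each probe set named for a single gene of the set, on a log axis in array units, with RXRγ mice as filled red circles and control mice as open blue circles, 1 array each, and a grey line joining the pair. The dashed line marks 250 and the dotted line 150; the probe sets of Odc1 and Azin1 are brighter in RXRγ mice (1592.7 against 777.4 for the brightest of Odc1), and those of Smox are dimmer (160.2 against 391.8).

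The antizyme genes, whose products inhibit ornithine decarboxylase, differed less. Oaz1, which encodes the main antizyme, gave 5294.8 in RXRγ mice, against 4437.1 in control mice. The log2 ratio, 0.25, did not reach the threshold, and 951 of the measured genes (25.2%) had a larger one. This value rests on 1 probe set, since another is shared with a pseudogene of Oaz1 and was not used. Oaz2, a second antizyme gene, had 1408.0 in RXRγ mice against 955.4 in control mice at one probe set and 1103.6 in RXRγ mice against 791.3 in control mice at another. Their log2 ratios were 0.56 and 0.48, so that both lay just above the threshold, and the gene averaged 1255.8 in RXRγ mice and 873.4 in control mice (1.43-fold). The remaining probe set of Oaz2 had 19.1 in RXRγ mice and 2.0 in control mice, both too low for a fold. The log2 ratio of Odc1 exceeded that of Oaz1 by 0.78, and the log2 ratio of Azin1 exceeded it by 1.54, while that of Oaz2 exceeded it by 0.26. Oaz3, the antizyme gene of the testis, was dim (2.8 in RXRγ mice and 17.0 in control mice at its brightest probe set).

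Amd1, Srm and Sms encode the enzymes that build spermidine and spermine, and none of the 3 was measured. The annotation used here lists no probe set for Amd1, S-adenosylmethionine decarboxylase, which has a close copy in Amd2. Sms, spermine synthase, has 3 probe sets, each shared with a pseudogene of Sms, so they were given no value. Srm, spermidine synthase, has 1 probe set, which gave 111.8 in RXRγ mice and 87.7 in control mice. Both are under 150, the level below which a signal was taken as too low for a fold. For this arm of the pathway the arrays therefore gave no usable ratio.

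On the side of breakdown, Smox was lower in RXRγ mice. Smox encodes spermine oxidase, which turns spermine back into spermidine. Its measured probe set had a signal of 160.2 in RXRγ mice against 391.8 in control mice, a log2 ratio of -1.29 (2.45-fold lower). This probe set exceeded 250 in control mice alone, so it was measured through the genotype in which it is higher. The signal in RXRγ mice lay just above 150, so that the size of the decrease rests on a dim value. The other probe set was dim in both genotypes (10.2 in RXRγ mice and 61.2 in control mice), too low for a fold. A smaller log2 ratio was found for 88 of the 3780 measured genes (2.33%). Sat1, the acetyltransferase that starts polyamine export and breakdown, had 164.7 in RXRγ mice and 157.9 in control mice. It did not reach 250, and its log2 ratio without the filter was 0.06.

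**Figure D2:**
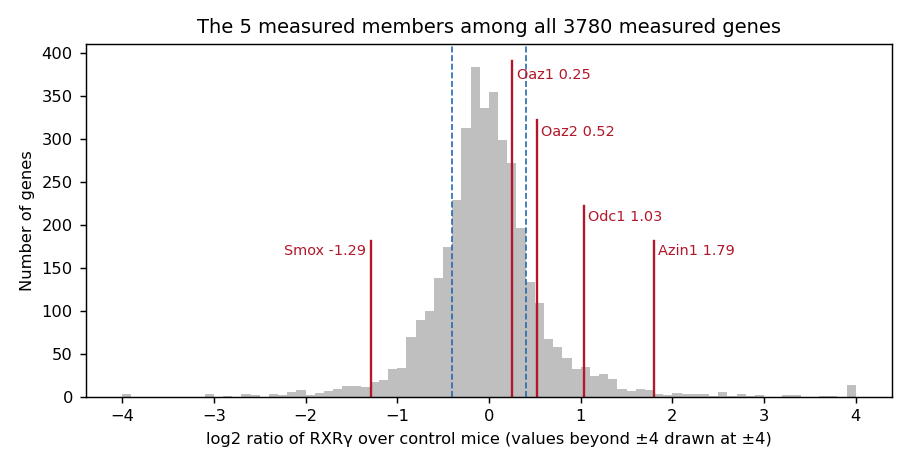
Number of genes (vertical axis) by log2 ratio of RXRγ over control mice (horizontal axis) for all 3780 measured genes in grey, with the 5 measured polyamine genes as red lines, whose heights are set for legibility only. Dashed lines mark 0.4 in either direction; Azin1 (1.79) and Odc1 (1.03) lie in the right tail, Smox (-1.29) in the left tail and Oaz1 (0.25) inside the lines.

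A list of 43 genes around the pathway was read in the same way. Of these, 13 were measured, 25 were too dim and 5 had no probe set of their own listed. Of the 13, 3 were higher in RXRγ mice, 3 were lower and 7 stayed within 0.4, and their median log2 ratio was -0.03. With 16.8% of all measured genes called higher and 20.1% lower, these counts are near the background and single out no direction. The groups within the list were not compared with one another. The largest difference among them was that of Oat. Oat, ornithine aminotransferase, which interconverts ornithine and glutamate semialdehyde in mitochondria, had a signal of 817.4 in RXRγ mice against 2933.8 in control mice (log2 ratio -1.84, or 3.59-fold lower). The arginase genes, which make ornithine from arginine, were dim: Arg1 had 9.6 in RXRγ mice and 7.4 in control mice, and Arg2 had 5.9 in RXRγ mice and 1.8 in control mice at its brightest probe set. Azin2, a second antizyme inhibitor gene, was dim as well (32.1 in RXRγ mice and 39.9 in control mice).

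The higher genes were Slc3a2, Atp13a3 and Gpc1, which are listed under transport, where 5 of 12 were measured. Slc3a2, the heavy chain shared by several amino acid transporters, had 383.2 in RXRγ mice against 261.3 in control mice (log2 ratio 0.55). Atp13a3, a P-type ATPase that brings polyamines into the cell, had 340.3 in RXRγ mice against 236.9 in control mice (log2 ratio 0.52), and it exceeded 250 in RXRγ mice alone. Gpc1, a heparan sulphate proteoglycan that takes part in polyamine uptake, had 872.2 in RXRγ mice against 607.4 in control mice (log2 ratio 0.52). These increases were modest and each rests on 1 probe set. Slc7a2, a carrier of arginine and ornithine, was lower, at 264.2 in RXRγ mice against 401.1 in control mice (log2 ratio -0.60). This decrease also rests on 1 probe set, and dimmer probe sets of Slc7a2 did not all share it. With the filter lowered to 150 on the brighter array the mean log2 ratio of Slc7a2 was 0.26, and without a filter it was -0.03. In these settings its probe sets passed the threshold in opposite directions, so Slc7a2 was called neither way. Cav1, caveolin, had 1555.4 in RXRγ mice and 1666.8 in control mice (log2 ratio -0.10).

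In the salvage of methylthioadenosine, the by-product of spermidine and spermine synthesis, 3 of 5 genes were measured. Apip, a dehydratase of this route, was lower, at 175.7 in RXRγ mice against 321.5 in control mice (log2 ratio -0.87). Its 1 measured probe set exceeded 250 in control mice alone. Mtap, the first enzyme, and Adi1, a later one, had log2 ratios of -0.11 and -0.30, and the 3 probe sets of Adi1 ran between -0.50 and -0.12. Among the genes that supply S-adenosylmethionine, Mat2b, the regulatory subunit of the synthetase, had 954.1 in RXRγ mice and 736.4 in control mice (log2 ratio 0.37). Ahcy, which clears S-adenosylhomocysteine, had 320.0 in RXRγ mice and 242.9 in control mice, a 1.32-fold difference that lay just under the threshold. Eif5a, the translation factor that carries hypusine made from spermidine, averaged 2463.8 in RXRγ mice and 2346.5 in control mice (log2 ratio 0.11). Of the enzymes that make hypusine, Dhps had 136.6 in RXRγ mice and 194.1 in control mice, and Dohh had 155.8 in RXRγ mice and 170.7 in control mice, all under 250. Maob, a monoamine oxidase, had a log2 ratio of -0.03. None of the 5 users of S-adenosylmethionine in creatine and methyl metabolism was measured, the brightest being Gamt, at 196.3 in RXRγ mice and 102.3 in control mice.

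**Figure D3:**
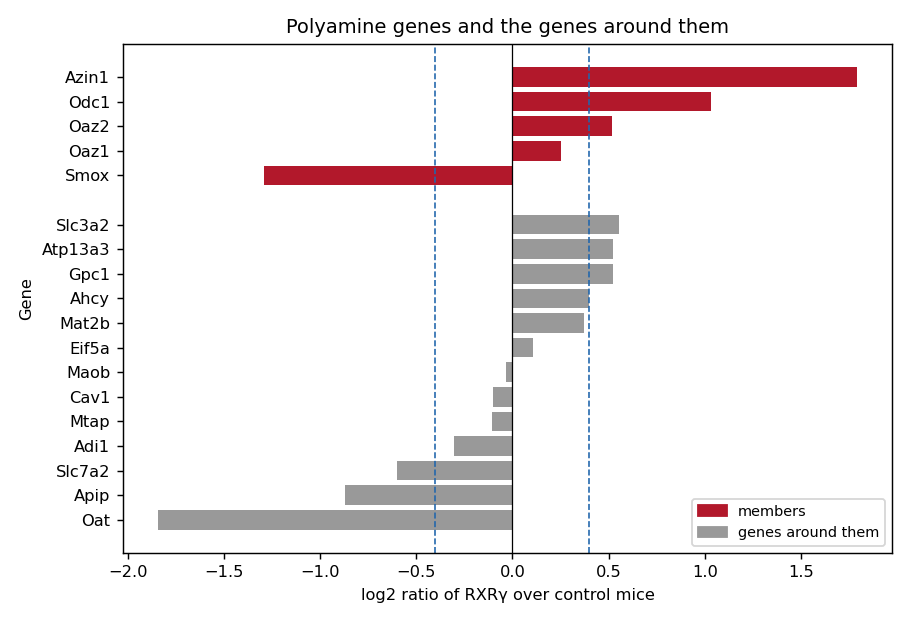
log2 ratio of RXRγ over control mice (horizontal axis) for the 5 measured polyamine genes in red and the 13 measured genes around them in grey, 1 bar per gene, sorted by value within each part. Dashed lines mark 0.4 in either direction; Azin1 has the longest bar to the right (1.79), and Oat the longest to the left (-1.84).

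The labels were checked on the overexpressed gene. Rxrg, the transgene's own gene, gave 9172.1 in RXRγ mice and 334.5 in control mice (27.4-fold). Signals above 150 were found for 8128 probe sets in RXRγ mice and 8091 in control mice, and the median signal was 24.3 in RXRγ mice and 22.7 in control mice. All 11 markers of skeletal muscle were measured, with signals of at least 5703.3 in RXRγ mice and 9977.6 in control mice. None of them was higher and 3 were lower (median log2 ratio -0.24), and their summed signal was 113506 in RXRγ mice and 130722 in control mice. No marker of fat, macrophages or fibroblasts passed the threshold, although 2 of 6, 2 of 5 and 4 of 4 were measured, with summed signals over all named markers of 1566.0, 1035.4 and 8647.2 in RXRγ mice and 1385.2, 903.9 and 7898.3 in control mice. Of 4 nerve markers 1 was measured, and it stayed within 0.4. The markers of endothelium, blood and satellite cells stayed under 250, and the satellite cell markers summed to 103.2 in RXRγ mice and 44.7 in control mice. The part of these differences in the values of the polyamine genes was not tested. In RNA of whole muscle, fewer cells of a type and less RNA per cell cannot be told apart.

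**Figure D4:**
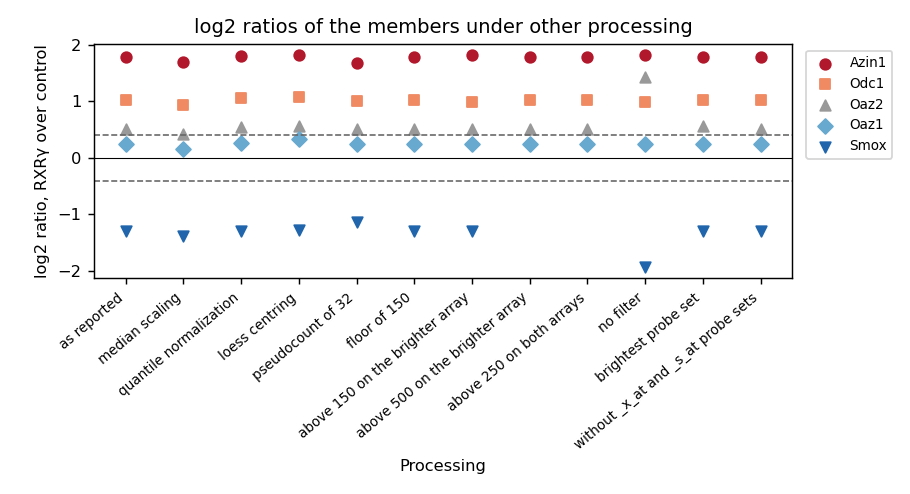
log2 ratio of RXRγ over control mice (vertical axis) for the 5 measured polyamine genes under the processing reported here and under 11 other ways of processing the same signals (horizontal axis), 1 symbol per gene. Dashed lines mark 0.4 in either direction; Azin1 stays between 1.68 and 1.83 and Odc1 between 0.93 and 1.08, while Smox is missing where a filter removes it.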

How the data were processed

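Transcripts in pooled skeletal muscle RNA were measured on 1 Affymetrix MG430 array for RXRγ mice and 1 for control mice. The deposited signal intensity values are the authors' probe set values from Affymetrix Gene Chip 3.1 software, which sets matched against mismatched oligonucleotides. Their scale is linear, both arrays had been scaled by the authors, and the algorithm for this was not given in the sources used here. Detection calls were not used here.

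Of 45101 probe sets, 34958 had 1 gene symbol in the platform annotation, 932 had several and 9211 were not listed, and only the first kind was used. The log2 ratio was taken without a pseudocount. A gene was called neither way where its probe sets passed 0.4 in both directions. The values 250, 0.4 and 150 were taken from the study's methods, where 250 and 150 go with a present call, 0.4 is for increases and 150 marks expressed genes. Here 250 was required on the brighter array, 0.4 was used in both directions and 150 as a floor for folds, all without calls. No p-values were computed. The members and lists were chosen with earlier results of these data known. All members were named, with the pathway genes past 0.4 and the brightest 6 of the rest. Mtap and the dim pathway genes were named after their values were seen.

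Alternatives changed 1 choice at a time: scaling, a pseudocount of 32, a floor of 150, the signal filter, the choice of probe sets and a threshold of 1. The steps were tested on simulated data. Python 3.11.15, pandas 2.3.3, numpy 2.4.6 and statsmodels 0.14.6 (loess) were used, with matplotlib 3.10.9 for figures.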

Additional observations from a re-analysis of the deposited data

How the results depend on the processing

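No paired analysis was possible because each genotype has 1 array, and no replicate could be left out. Azin1, Odc1, Oaz2 and Oaz1 kept their calls under all 11 alternatives to the log2 ratio, and Smox under the 9 in which it was measured. Where 500 on the brighter array or 250 on both arrays was required, 0 polyamine genes were lower, because Smox was removed. Without a filter on dim probe sets the log2 ratio was -1.94 for Smox and 1.43 for Oaz2, since their dim probe sets then enter the mean. The lowest value of Oaz2 was 0.42, under median scaling. At a threshold of 1, Odc1 and Azin1 were higher and Smox was lower.

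Of the genes around the pathway, 5 of 13 measured were higher after loess centring, where Mat2b (log2 ratio 0.42) and Ahcy (0.41) were added. In that setting 697 of all 3780 genes were higher and 701 lower. With 250 required on both arrays 2 of 10 measured pathway genes were higher and 2 lower, since Atp13a3 and Apip were removed. Above 500 on the brighter array 1 of 5 was higher and 1 lower, and without a filter 10 of 38 were higher and 8 lower. At a threshold of 1, 0 of 13 were higher and 1 was lower. Over all genes, where 636 of 3780 were higher and 760 lower, the counts were 371 and 501 of 3055 above 250 on both arrays. They were 340 and 438 of 2067 above 500, and 982 and 1028 of 5359 above 150. Without a filter they were 5208 and 4114 of 18194, and at a threshold of 1 they were 191 and 155 of 3780. With 1 array per genotype, none of these alternatives gives the spread between animals.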
